A study of Mus musculus with 14 samples.

Results

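Transcript levels of 10 genes of cystine import and of glutathione synthesis, recycling and breakdown were followed in mouse liver tumours. The genes were taken by name from a list of the pathway: Slc7a11, Slc3a2, Gclc, Gclm, Gss, Gsr, Ggt1, Chac1, Cth and Cbs. All 10 were measured in both deposited tables, which hold 16821 and 16095 genes (17139 in either table and 15777 in both), and all 10 passed the filter on low values, a mean deposited value of at least 10. Tumours were MYC-driven mouse hepatocellular carcinomas, labelled as hepatocytes, in which Cas9 editing with a guide RNA was used to activate NRF2, the transcription factor encoded by Nfe2l2. The first table holds 4 tumours with the control guide sgGFP, 3 with sgCul3 and 3 with sgKeap1, and these guides are directed at genes for the negative regulators of NRF2. The second table holds 2 control tumours, A and B, and 2 sgNrf2 tumours, A and B, where the guide is directed at the ETGE motif of NRF2, the site through which KEAP1 binds it. All groups share the MYC driver, and the sgGFP tumours carry a guide as well. Control A repeats sgGFP tumour 2 and control B repeats sgGFP tumour 4, per the labels, so both tables draw on the same control tumours. Strain, sex, age, the way MYC and Cas9 were delivered, the share of edited cells and whether tumours came from separate animals is not stated in the labels, so p-values measure the spread between these tumours.

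Glutathione is a tripeptide of glutamate, cysteine and glycine and is a main thiol antioxidant of the liver. Cystine enters cells through system xc-, in which the transporter chain xCT (Slc7a11) is held at the membrane by the heavy chain 4F2hc (Slc3a2), and hepatocytes can also make cysteine from methionine by transsulfuration, through Cbs and then Cth. Glutamate-cysteine ligase, a catalytic chain (Gclc) with a modifier chain (Gclm), carries out the rate-limiting step, glutathione synthetase (Gss) adds glycine, and glutathione reductase (Gsr) returns the oxidised form to the reduced one. Gamma-glutamyltransferase (Ggt1) starts the breakdown of glutathione outside the cell and Chac1 cleaves it in the cytosol. Gclc, Gclm and Slc7a11 are known NRF2 target genes, and Slc7a11 and Chac1 are also known targets of the stress factor ATF4.

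The promoter windows that hold letters of these regulators' binding motifs are shown for Slc7a11, the gene with the largest change, for Gclm, a ligase chain, and for Chac1, which did not pass in any comparison. Each is the 250 bases before the annotated start, read 5′ to 3′ on the strand of the gene from RefSeq promoter records of GRCm38.p6. Capitals mark matches, on either strand, to TGACNNNGC (the core of the antioxidant response element, to which NRF2 binds) or to TGATGNAA (the C/EBP-ATF response element, to which ATF4 binds).
Slc7a11, chr3:50443614-50443863, minus strand: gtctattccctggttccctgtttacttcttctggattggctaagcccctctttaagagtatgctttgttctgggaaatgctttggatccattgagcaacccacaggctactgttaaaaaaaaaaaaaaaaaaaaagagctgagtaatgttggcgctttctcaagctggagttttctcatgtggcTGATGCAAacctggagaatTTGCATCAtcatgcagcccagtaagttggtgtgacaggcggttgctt
Gclm, chr3:122245307-122245556, plus strand: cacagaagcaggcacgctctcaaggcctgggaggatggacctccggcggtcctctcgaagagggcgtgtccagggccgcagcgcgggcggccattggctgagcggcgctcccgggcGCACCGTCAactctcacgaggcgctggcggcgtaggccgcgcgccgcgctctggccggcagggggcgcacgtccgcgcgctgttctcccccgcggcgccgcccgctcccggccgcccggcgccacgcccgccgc
Chac1, chr2:119350992-119351241, plus strand: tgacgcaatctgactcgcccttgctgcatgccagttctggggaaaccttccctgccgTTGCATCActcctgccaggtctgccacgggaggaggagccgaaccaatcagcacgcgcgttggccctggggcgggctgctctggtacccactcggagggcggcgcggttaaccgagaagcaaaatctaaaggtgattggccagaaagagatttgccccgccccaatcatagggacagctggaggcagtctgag
The Slc7a11 window held the C/EBP-ATF letters at 66 and 47 bases before the start, the first on the strand of the gene and the other on the opposite strand. In Chac1 the same letters lay 193 bases before the start on the opposite strand. The Gclm window held the antioxidant response element core 134 bases before the start, on the opposite strand. Windows were found for 7 of the 10 genes (not Gclc, Gsr or Cth), and 2 of the 7 held each motif: Slc7a11 and Chac1 the C/EBP-ATF letters, Gclm and Ggt1 the antioxidant response core. Ggt1 has 4 windows, of which 2 held the core. The bases after the start of the Slc3a2 window (chr19:8713898-8714147) were not found in an annotated transcript of the gene. The same holds for the Ggt1 window at chr10:75563882-75564131, and neither window held a match. Of all 27025 genes with a window, 11.5% held the antioxidant response core in at least 1 window and 3.91% the C/EBP-ATF letters, and of all 32851 windows 10.2% and 3.45% did. A match describes the letters only, and elements lying farther from the start were not searched.

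Libraries of the first table held 6333025 to 12008223 reads on genes and those of the second 17819333 to 20848578, and a count of 3 reads corresponds to 0.144 to 0.474 CPM (counts scaled to a common library total). Keap1 transcript was 582 to 721 scaled counts in sgGFP and 287 to 462 in sgKeap1 tumours (limma adjusted p = 0.048). Cul3 was 935 to 1372 in sgGFP and 163, 426 and 676 in sgCul3 tumours (adjusted p = 0.051). Nfe2l2 transcript did not pass in sgNrf2 tumours (log2 fold change -0.05, adjusted p = 0.89), and an edit of its ETGE motif is not visible in gene counts. All 8 hepatocyte markers were above 0 in every group. All 12 erythroid markers had a log2 fold change below 0 with each guide, and 6, 8 and 10 passed in sgCul3, sgKeap1 and sgNrf2. Of 9 neutrophil markers 8, 9 and 9 were below 0, and 0, 6 and 3 passed. In sgCul3 tumour 2 the summed erythroid and neutrophil levels, 1174 and 295 CPM, lay within the range of the sgGFP tumours. The summed erythroid level was 654 to 1452 CPM in sgGFP, 49.4 to 1174 in sgCul3 and 160 to 235 in sgKeap1, where Ermap and Rhag were at 0, and 57.2 to 119 in sgNrf2, whose controls had 869 to 918. The summed neutrophil level was 83.1 to 541 in sgGFP, 17.3 to 295 in sgCul3, 13.4 to 25.1 in sgKeap1 and 11.4 to 36.3 in sgNrf2, whose controls had 219 to 546. Of 6 cholangiocyte markers, 1, 2 and 0 were higher, with summed levels of 8.30 to 60.8 CPM in sgGFP, 51.6 to 159 in sgCul3 and 62.9 to 202 in sgKeap1, and of 38.1 to 281 in sgNrf2, whose controls had 7.24 to 40.9. Of 6 endothelial markers 1 was lower with sgCul3 (summed 40.4 to 57.3, against 62.1 to 126 in sgGFP) and 1 higher with sgNrf2 (135 to 153, against 53.2 to 65.5). With sgNrf2 the stellate or fibroblast markers summed to 209.9 to 294, against 113 to 127 (1 of 5 tested higher), and the T cell markers to 11.7 to 15.8, against 1.29 to 5.6 (0 of 5 called). Of 8 macrophage markers 2 were called lower and 0 higher with sgNrf2, where the sum was 415 to 434, against 75.1 to 421. Only 3 of these 8 had a log2 fold change below 0, and their median was 1.02. The part of these cell types in the values below was not tested, and in bulk tumour RNA fewer cells of a type cannot be told apart from less RNA per cell.

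The 6 genes that import cystine and build and recycle glutathione had a higher level in every guide tumour than in every control tumour of the same table. Of all genes tested, 8.71%, 13.1% and 33.3% were likewise higher without overlap with sgCul3, sgKeap1 and sgNrf2. These 6 genes were grouped after values were seen. Slc7a11, Gclc, Gss and Gsr passed as higher in sgCul3, sgKeap1 and sgNrf2 tumours, and Slc3a2 and Gclm did so in sgKeap1 tumours alone. With sgCul3 and sgNrf2, Gss, Slc3a2 and Gclm had similar log2 fold changes, 1.16 to 1.34. Their limma adjusted p was 0.045 and 0.047 for Gss, and 0.061 to 0.094 for Slc3a2 and Gclm. Neither the transsulfuration genes Cth and Cbs nor the breakdown genes Ggt1 and Chac1 rose or fell past the threshold with any guide. Calls are at a limma adjusted p under 0.05 over all genes tested. In sgCul3 against sgGFP, 4 of the 10 genes were higher and 0 lower, where 1.35% of the 13045 genes tested were higher and 0.851% lower. In sgKeap1 against sgGFP the counts were 6 and 0 of 10, beside 4.45% and 3.37% of all genes. In sgNrf2 against controls A and B they were 4 and 0 of 10, beside 1.90% and 2.51% of 13989 genes. At an unadjusted p under 0.05, 6 of the 10 were higher with each guide, beside 9.07%, 14.9% and 15.2% of all genes with sgCul3, sgKeap1 and sgNrf2. At that threshold 2, 1 and 2 of the 10 were lower, beside 8.11%, 14.3% and 15.1% of all genes. After adjustment edgeR called 0 lower with each guide, and DESeq2 called 1, 1 and 2. The median log2 fold change of the 10 genes was 1.24, 1.84 and 1.20 with sgCul3, sgKeap1 and sgNrf2, beside 0.01, -0.01 and 0.04 over all genes tested. Scaling to equal totals moves the median of all genes to 0.05, -0.20 and 0.34, and that of the 10 genes to 1.28, 1.64 and 1.5. It also turns the whole-table split for sgNrf2 from 266 higher and 351 lower to 874 higher and 362 lower.

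**Figure D1:**
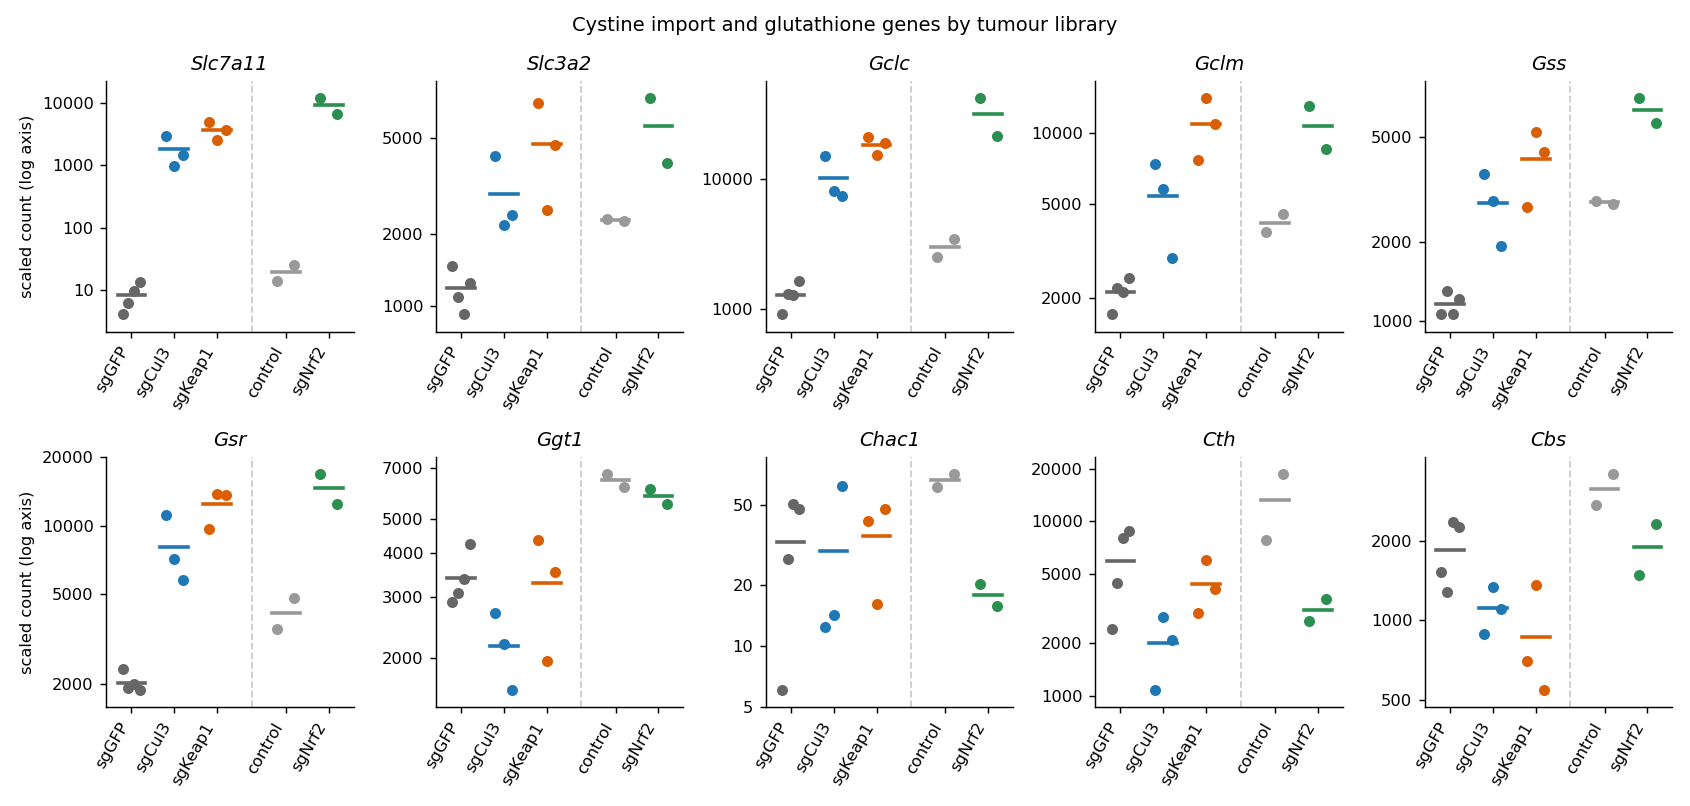
Scaled counts (the deposited values without the 1 added in the first table, log axis) of the 10 genes in each tumour, 1 point per library with a bar at the group mean. Dashed lines part the separately scaled tables. In Slc7a11 the sgGFP points lie at 4.05 to 13.4 and the sgKeap1 points at 2568 to 4862.

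The transporter chain Slc7a11 (13 merged exon blocks, GRCm38 chromosome 3, bases 49892526 to 50443614, minus strand) had the highest log2 fold change of all genes tested with sgCul3 and with sgKeap1 and the third highest with sgNrf2, where it ranked 3 of 13989. Its scaled count, the read count scaled by the authors for library depth, was 4.05, 6.14, 9.74 and 13.4 in sgGFP tumours 1 to 4, which is 6 to 15 reads. The 3 sgCul3 tumours had 2976, 983 and 1438 and the 3 sgKeap1 tumours had 4862, 2568 and 3672. In the second table controls A and B had 14.0 and 25.3, from 13 and 20 reads, and sgNrf2 tumours A and B had 11863 and 6709. Every guide tumour lay far above every control tumour, while the sgCul3 and sgKeap1 tumours overlapped. The means were 8.34 ± 4.13 (SD, n = 4) in sgGFP, 1799 ± 1045 (SD, n = 3) in sgCul3, a 216-fold ratio, and 3701 ± 1147 (SD, n = 3) in sgKeap1, a 444-fold ratio. They were 19.7 ± 7.99 (SD, n = 2) in controls and 9286 ± 3645 (SD, n = 2) in sgNrf2, a 472-fold ratio. The log2 fold change, on log2 of the deposited value plus 1, was 7.38 ± 0.42 (SE, adjusted p = 1.1e-05) with sgCul3 and 8.53 ± 0.42 (SE, adjusted p = 2.2e-06) with sgKeap1. With sgNrf2 it was 8.81 ± 0.43 (SE, adjusted p = 0.017). Deposited values of the first table already hold an added 1, which lowers fold changes from low counts. The sgNrf2 value is therefore not on the same scale as the others. The call was kept in every alternative computed for each guide.

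Its partner Slc3a2 (chromosome 19, bases 8706882 to 8723369, minus strand), which also serves other amino acid carriers, was already abundant in control tumours and differed less. It was 1474, 1089, 925 and 1253 scaled counts in sgGFP tumours 1 to 4, 4188, 2169 and 2387 in sgCul3 and 6988, 2516 and 4649 in sgKeap1 tumours 1 to 3. Tumours sgNrf2 A and B had 7299 and 3923, against 2303 and 2252 in their controls. Every guide tumour was above every control tumour of its table, but only the sgKeap1 difference passed. Its log2 fold change was 1.89 ± 0.35 (SE, adjusted p = 0.010) with sgKeap1, 1.25 ± 0.35 (SE, adjusted p = 0.094) with sgCul3 and 1.23 ± 0.33 (SE, adjusted p = 0.092) with sgNrf2. Without sgKeap1 tumour 3 the adjusted p for sgKeap1 was 0.051. With tumour numbers as a block over all groups of the table, the sgCul3 difference passed (1.29, adjusted p = 0.044).

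Gclc, the catalytic chain of the ligase (GRCm38 chromosome 9, bases 77754535 to 77794485, plus strand), rose with all 3 guides. It was 915, 1311, 1296 and 1647 scaled counts in sgGFP tumours 1 to 4, 14947, 8051 and 7423 in sgCul3 and 20938, 15185 and 19098 in sgKeap1 tumours 1 to 3. Against 2540.3 and 3469 in controls A and B, the sgNrf2 tumours had 41752 and 21552. The lowest guide tumour of the first table, sgCul3 tumour 3, was still well above the highest sgGFP tumour. The means were 1292 ± 299 (SD, n = 4) in sgGFP, 10140.2 ± 4174 (SD, n = 3) in sgCul3 and 18407 ± 2938 (SD, n = 3) in sgKeap1. Log2 fold changes were 2.93 ± 0.29 (SE, adjusted p = 8.0e-04) with sgCul3, 3.85 ± 0.29 (SE, adjusted p = 6.3e-05) with sgKeap1 and 3.34 ± 0.38 (SE, adjusted p = 0.034) with sgNrf2. Without control B the sgNrf2 difference no longer passed (adjusted p = 0.050).

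Gclm, the modifier chain (chromosome 3, bases 122245557 to 122270732, plus strand), which raises the efficiency of the catalytic one, differed by less than Gclc in each fold change. It was 1702, 2209, 2127 and 2434 scaled counts in sgGFP tumours 1 to 4, 7442, 5789.6 and 2954 in sgCul3 and 7741, 14104 and 10944 in sgKeap1 tumours 1 to 3. In the second table the controls A and B had 3799 and 4556, and the sgNrf2 tumours had 13054 and 8558. No guide group overlapped its controls, although sgCul3 tumour 3 lay close to the sgGFP tumours. On the log2 scale the difference was 2.34 ± 0.32 (SE, adjusted p = 0.0021) with sgKeap1, 1.26 ± 0.32 (SE, adjusted p = 0.075) with sgCul3 and 1.34 ± 0.28 (SE, adjusted p = 0.061) with sgNrf2. The sgCul3 difference passed without sgCul3 tumour 3 (adjusted p = 0.021). Scaled to equal totals, both passed (adjusted p = 0.044 for sgCul3 and 0.040 for sgNrf2).

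Gss, which completes glutathione (chromosome 2, bases 155563181 to 155592810, minus strand), was 1058, 1296, 1062 and 1214 scaled counts in sgGFP tumours 1 to 4, 3632, 2846 and 1917 in sgCul3 and 2707, 5248 and 4389.6 in sgKeap1 tumours 1 to 3. Tumours sgNrf2 A and B had 7025 and 5674, against 2853 and 2786 in their controls. The guide tumours lay above the control tumours of their table throughout. The log2 fold change was 1.23 ± 0.27 (SE, adjusted p = 0.045) with sgCul3, 1.78 ± 0.27 (SE, adjusted p = 0.0036) with sgKeap1 and 1.16 ± 0.20 (SE, adjusted p = 0.047) with sgNrf2. The sgCul3 call was lost without any 1 of the sgGFP tumours or without sgCul3 tumour 1 or 2 (adjusted p = 0.077 to 0.21). It was also lost with tumour numbers as a block over all groups of the table (1.25, adjusted p = 0.076). The sgNrf2 call was lost without control B (adjusted p = 0.055), sgNrf2 A (0.36) or sgNrf2 B (0.21). Of the annotated exonic bases of Gss, 15.4% are shared with genes on the other strand, Acss2 and the antisense genes Gssos1 and Gssos2, and the counting is not stated to use strand. Acss2 itself did not pass (log2 fold changes 0.23, 0.79 and 1.53 with sgCul3, sgKeap1 and sgNrf2).

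Gsr, which regenerates reduced glutathione with NADPH (chromosome 8, bases 33652523 to 33698163, plus strand), rose with all 3 guides. It was 2318, 1929, 1991 and 1882 scaled counts in sgGFP tumours 1 to 4, 11136, 7140.2 and 5734 in sgCul3 and 9643, 13833 and 13693 in sgKeap1 tumours 1 to 3. Against 3486 and 4769 in controls A and B, the sgNrf2 tumours had 16880.1 and 12469. The sgGFP tumours were close together and all guide tumours were clear of them. Log2 fold changes were 1.93 ± 0.26 (SE, adjusted p = 0.0045) with sgCul3, 2.59 ± 0.26 (SE, adjusted p = 2.9e-04) with sgKeap1 and 1.83 ± 0.27 (SE, adjusted p = 0.043) with sgNrf2. The sgNrf2 call was lost without sgNrf2 A (adjusted p = 0.20) or sgNrf2 B (0.12).

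**Figure D2:**
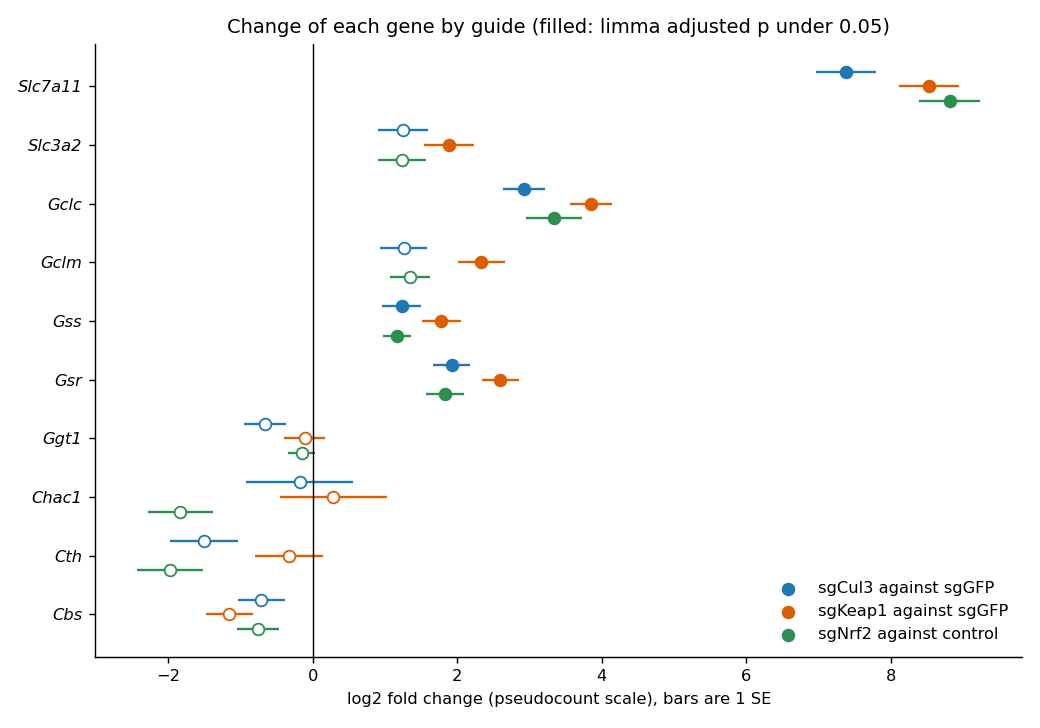
Log2 fold change (horizontal axis, on log2 of the deposited value plus 1) of each gene with each guide, with bars of 1 SE and filled points where the limma adjusted p was under 0.05. Deposited values of the first table already hold an added 1, so the scales of the tables differ at low counts. Slc7a11 lies at 7.38 to 8.81 and Gclc at 2.93 to 3.85, while all 12 points of Ggt1, Chac1, Cth and Cbs are open.

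The breakdown genes showed no called change. Ggt1, the cell-surface enzyme, was 2900.4, 3076, 3376 and 4248 scaled counts in sgGFP tumours 1 to 4, 2696, 2199 and 1625 in sgCul3 and 4359, 1964 and 3522 in sgKeap1 tumours 1 to 3. In the second table the controls A and B had 6723 and 6169.8, and the sgNrf2 tumours had 6084 and 5528. The sgCul3 tumours were all below the sgGFP tumours, the sgKeap1 tumours overlapped them, and the sgNrf2 tumours lay just below their controls. On the log2 scale the difference was -0.66 ± 0.29 (SE, adjusted p = 0.27) with sgCul3, -0.11 ± 0.29 (SE, adjusted p = 0.82) with sgKeap1 and -0.15 ± 0.19 (SE, adjusted p = 0.61) with sgNrf2, where the sign turned when totals were set equal (0.16).

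Chac1, the cytosolic enzyme, was scarce. It was 6.07, 26.9, 50.5 and 47.4 scaled counts in sgGFP tumours 1 to 4, 12.4, 14.2 and 61.8 in sgCul3 and 41.7, 16.2 and 47.6 in sgKeap1 tumours 1 to 3. Tumours sgNrf2 A and B had 20.3 and 15.7, against 61.5 and 70.9 in their controls. The groups of the first table overlapped, whereas both sgNrf2 tumours lay below both controls. These controls repeat sgGFP tumours 2 and 4. Tumour sgGFP 1, which has no repeat, had 0.771 CPM from 9 reads, below the 1.20 and 0.937 CPM of sgNrf2 A and B. Its log2 fold change was -0.18 ± 0.74 (SE, adjusted p = 0.93) with sgCul3, 0.29 ± 0.74 (SE, adjusted p = 0.82) with sgKeap1 and -1.83 ± 0.45 (SE, adjusted p = 0.082) with sgNrf2. DESeq2 called the sgNrf2 difference, just under the threshold (adjusted p = 0.050).

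The transsulfuration genes were lower in mean in every guide group, and no difference passed. Cth, the enzyme that releases cysteine, was 2428, 4414, 8072 and 8842 scaled counts in sgGFP tumours 1 to 4, 1078, 2818 and 2097 in sgCul3 and 2983, 5996 and 4087 in sgKeap1 tumours 1 to 3. Against 7865 and 18709.5 in controls A and B, the sgNrf2 tumours had 2677 and 3564. Control tumours differed among themselves by far more for Cth than for Gclm or Gsr, and only the second table separated the groups. The log2 fold change was -1.50 ± 0.47 (SE, adjusted p = 0.13) with sgCul3, -0.33 ± 0.47 (SE, adjusted p = 0.67) with sgKeap1 and -1.97 ± 0.45 (SE, adjusted p = 0.073) with sgNrf2. DESeq2 called Cth lower with sgCul3 (adjusted p = 0.015) and with sgNrf2 (adjusted p = 1.0e-04), and limma did so for sgNrf2 without control A (adjusted p = 0.023).

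Cbs, the first enzyme of the route, was 1527, 1278, 2344 and 2247 scaled counts in sgGFP tumours 1 to 4, 887, 1330.2 and 1106 in sgCul3 and 700.4, 1354 and 544 in sgKeap1 tumours 1 to 3. In the second table the controls A and B had 2724 and 3577, and the sgNrf2 tumours had 1478 and 2315. The groups of the first table overlapped through the lowest sgGFP tumour, and both sgNrf2 tumours lay below both controls. Log2 fold changes were -0.71 ± 0.33 (SE, adjusted p = 0.29) with sgCul3, -1.16 ± 0.33 (SE, adjusted p = 0.053) with sgKeap1 and -0.75 ± 0.29 (SE, adjusted p = 0.17) with sgNrf2. The sgKeap1 difference passed without sgKeap1 tumour 2 (adjusted p = 0.022), with equal totals (0.013) and with DESeq2 (0.020).

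Groups that do not overlap were common in these designs. In sgCul3, 6 of the 10 genes were higher and 1 lower in every tumour than in every sgGFP tumour, beside 8.71% and 7.54% of all genes. In sgKeap1 the counts were 6 and 0, beside 13.1% and 12.6%. In sgNrf2, with 2 tumours a group, they were 6 and 4, beside 33.3% and 30.7%.

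Between the guides of the first table, the 6 genes of import, synthesis and recycling had a higher mean in sgKeap1 than in sgCul3, and no difference was called. Of the 10 genes 0 were higher and 0 lower by limma, as by edgeR and DESeq2, beside 0.0307% of all genes in either direction, and at an unadjusted p under 0.05, 5 of the 10 were higher and 0 lower, beside 4.86% and 5.22% of all genes. The difference, sgKeap1 minus sgCul3 on the log2 scale, was 1.15 for Slc7a11 (95% interval 0.17 to 2.12), 0.92 for Gclc (0.23 to 1.61) and 1.08 for Gclm (0.32 to 1.84). It was 0.67 for Gsr (0.06 to 1.27) and 1.17 for Cth (0.06 to 2.28), and the adjusted p of these 5 genes was 0.41 to 0.48. Gclc, Gclm and Cth were higher in each sgKeap1 tumour than in each sgCul3 tumour, 3 of the 10 genes higher and 0 lower, beside 7.52% and 8.24% of all genes. The median difference of the 10 genes was 0.65, beside 0.00 over all genes, and with equal totals it was 0.41 beside -0.23. The same sgGFP tumours serve both guides, so the fold changes against them are not independent of each other.

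The balance between partner chains differed between guide and control tumours. As reads per kilobase of annotated exon, Gclc and Gclm were nearly level in the controls, with a Gclc per Gclm ratio of 0.898, 0.991, 1.02 and 1.13 in sgGFP tumours 1 to 4 and of 1.12 and 1.27 in the 2 controls of the second table. The ratio was 3.36, 2.32 and 4.20 in sgCul3 and 4.52, 1.80 and 2.92 in sgKeap1 tumours 1 to 3, and 5.34 and 4.21 in sgNrf2 A and B. Every guide tumour thus held relatively more transcript of the catalytic chain than any control tumour. The Slc7a11 per Slc3a2 ratio was 0.000696 to 0.00272 in sgGFP, 0.115 to 0.180 in sgCul3 and 0.176 to 0.259 in sgKeap1. The 2 sgNrf2 tumours had 0.412 and 0.433, and their controls had 0.00154 and 0.00285. The transporter chain therefore stayed below its heavy chain per kilobase in all 14 libraries. The lengths used, 13.9 kilobases for Slc7a11, 3.77 for Gclc and 6.29 for Gclm, count every annotated exon. Both ratios, and the levels per kilobase given below, therefore depend on which transcripts the tumours use.

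**Figure D3:**
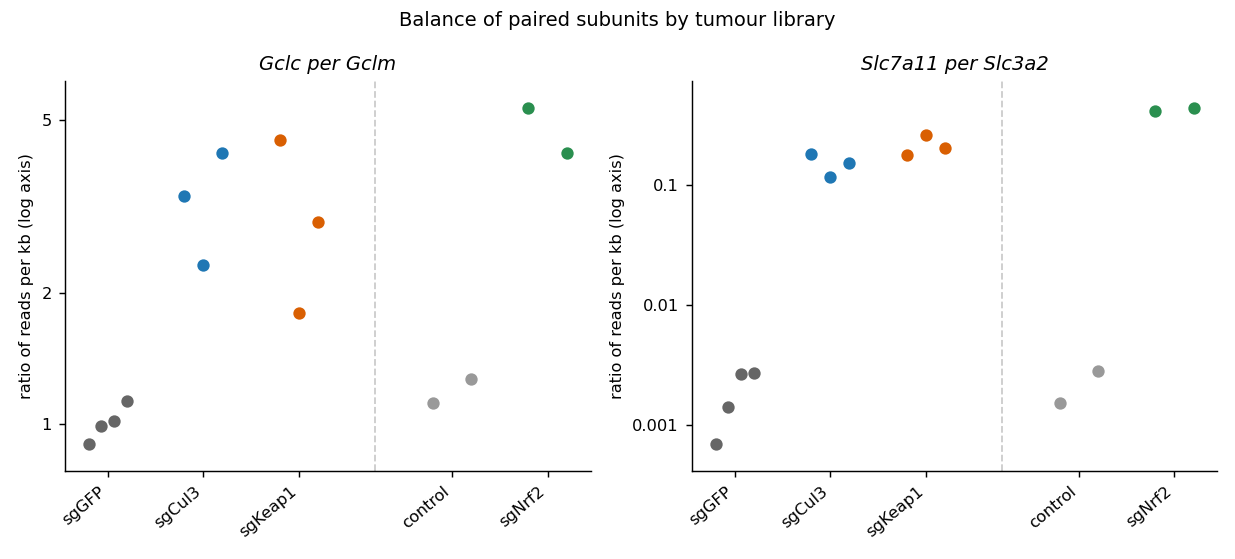
Ratio of reads per kilobase of Gclc to Gclm and of Slc7a11 to Slc3a2 (log axes), 1 point per tumour, with the tables parted by a dashed line. Gclc per Gclm lies at 0.898 to 1.27 in all 6 control libraries and at 1.80 to 5.34 in the 8 guide libraries.

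Per kilobase and by reads per library (RPKM, from the recovered reads), the order of the 10 genes differed between control and guide tumours. In sgGFP the highest levels were those of Cth, 222 ± 97.0 (SD, n = 4), Ggt1, 107 ± 8.88, and Gsr, 81.0 ± 17.9. Slc3a2, Gclc and Gclm followed at 37.0 ± 11.1, 36.6 ± 4.53 and 36.3 ± 1.65, which do not differ beyond their spread, then Cbs at 26.5 ± 6.05 and Gss at 21.2 ± 2.37. Chac1, 2.07 ± 1.23, and Slc7a11, 0.0626 ± 0.0250, were the lowest. In sgKeap1 Gclc led at 476 ± 153 (SD, n = 3) and Gsr followed at 423 ± 75.3, within the spread of each other, ahead of Gclm at 161 ± 24.2 and Cth at 143 ± 24.5. Gsr and Gclc also led in sgCul3, at 325 ± 120 and 302 ± 132 (SD, n = 3), and in sgNrf2, where Gclc stood at 499 ± 223 and Gsr at 316 ± 66.0 (SD, n = 2). Slc7a11 reached 14.6 ± 8.84 in sgCul3, 26.3 ± 11.9 in sgKeap1 and 39.6 ± 15.4 in sgNrf2.

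Tumours of a group also differed among themselves. In sgCul3, tumour 1 was the highest of the 3 for all 6 genes of import, synthesis and recycling, and for Ggt1, and the lowest for Chac1, Cth and Cbs. This tumour also had the lowest Cul3 transcript (163 scaled counts), and its library was the shallowest with 6333025 reads on genes. In sgKeap1 the 6 genes were split: tumour 1 was the highest and tumour 2 the lowest for Slc7a11, Slc3a2 and Gclc, whereas tumour 1 was the lowest for Gclm, Gss and Gsr. The highest tumour for these last 3 genes depended on the scaling, tumour 2 in scaled counts and tumour 3 in CPM, while the other orders named here were the same on both scales. In sgKeap1 tumour 2 the summed level of hepatocyte markers was 91637 CPM, against 16147 to 34316 over the sgGFP and sgCul3 tumours, and 24.5% of its reads came from 10 genes. In sgNrf2, tumour A was above tumour B for all 6. What sets these tumours apart was not tested.

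The repeated control tumours give a measure of the spread between repeats of a tumour. Control A against sgGFP tumour 2 had ratios of CPM of 0.822 to 1.10 over the 10 genes (median 1.02), and control B against sgGFP tumour 4 had 0.674 to 1.18 (median 0.872). The labels do not say whether the repeat began from the tumour, the RNA or the library. These ratios are small beside the fold changes of Slc7a11, Gclc and Gsr, although not beside those of Ggt1.

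The profiles of the other genes were compared with those of 3 members over the 10 libraries of the first table. Among 8821 genes, those with the smallest mean absolute difference from Slc7a11 in log2 change from the sgGFP mean were Cbr3 (0.96), Nqo1 (0.98) and Gpx2 (1.21). For Gclc they were Gstm4 (0.35), Ugdh (0.42) and Blvrb (0.47), and for Gclm they were Mocos (0.21), Cat (0.23) and Parp3 (0.23). Cbr3 and Nqo1 encode carbonyl and quinone reductases, Gpx2 a glutathione peroxidase, Gstm4 a glutathione transferase and Cat catalase.

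Of the 79 tested genes of 5 lists of neighbouring metabolism and stress, 1.27% were higher and 1.27% lower with sgCul3, 7.59% and 6.33% with sgKeap1 and 2.53% and 3.80% with sgNrf2, beside the shares of all genes given above. Of 16 tested genes of sulfur amino acid metabolism, 0 were higher or lower with sgCul3, 0 higher and 2 lower with sgKeap1 and 1 higher and 0 lower with sgNrf2, and the medians were -0.19, 0.14 and -0.28. Gnmt, a methyltransferase that consumes the methionine product S-adenosylmethionine, fell with sgKeap1 from 4081 ± 1729 (SD, n = 4) to 1017 ± 539.8 scaled counts (SD, n = 3), and Csad, of taurine synthesis, fell as well (log2 fold changes -2.01 and -0.93, adjusted p = 0.034 and 0.032). Gnmt was at -2.12 with sgCul3 and -1.82 with sgNrf2, with no overlap with the controls, and did not pass (adjusted p = 0.051 and 0.058). Csad was at -0.78 and 0.07 with those guides (adjusted p = 0.10 and 0.86). Ethe1, a mitochondrial enzyme of sulfide oxidation, rose with sgNrf2 (1.20, adjusted p = 0.044) and was at 0.56 and 0.79 with sgCul3 and sgKeap1 (adjusted p = 0.44 and 0.16).

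Of 19 genes of glutathione turnover, glutaredoxins and export, 1, 3 and 1 were higher and 0, 1 and 0 lower with sgCul3, sgKeap1 and sgNrf2 (medians 0.25, 0.35 and 0.52). Abcc4, a plasma membrane efflux pump that can carry glutathione conjugates, rose with every guide: its log2 fold change was 3.18 ± 0.58 (SE, adjusted p = 0.022) with sgCul3, 4.50 ± 0.58 (SE, adjusted p = 0.0015) with sgKeap1 and 5.75 ± 0.57 (SE, adjusted p = 0.029) with sgNrf2. Abcc2, the canalicular pump, and Ggct, which acts on gamma-glutamyl amino acids, rose with sgKeap1 (1.63 and 1.41, adjusted p = 0.016 and 0.025). The mitochondrial glutaredoxin Glrx2 fell with sgKeap1 (-0.62, adjusted p = 0.046). With sgCul3 and sgNrf2, Abcc2 was at 0.81 and 1.84, Ggct at 0.61 and 0.99 and Glrx2 at -0.48 and -1.09, none of which passed (adjusted p = 0.055 to 0.35).

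Among 16 amino acid carriers, 0, 2 and 0 were higher and 0 lower with sgCul3, sgKeap1 and sgNrf2 (medians -0.01, 0.10 and 0.37). With sgKeap1 Slc1a1, a glutamate and cysteine transporter, rose by 4.83 ± 1.04 (SE, adjusted p = 0.020) and Slc1a4, a carrier of small neutral amino acids, by 3.72 ± 0.62 (SE, adjusted p = 0.0063) on the log2 scale. With sgNrf2 the differences were 6.66 and 2.98 (adjusted p = 0.055 and 0.075) and with sgCul3 3.16 and 1.59 (adjusted p = 0.15 and 0.22), which did not pass. Slc7a5, another partner of Slc3a2, was at 0.01, -0.81 and 0.20 and did not pass.

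Of 14 genes that supply glutamate and glycine, 0, 1 and 0 were higher and 1, 2 and 1 lower (medians -0.12, -0.45 and -0.41). The transaminase gene Got1 fell with sgCul3 (-1.36, adjusted p = 0.045) and sgKeap1 (-1.40, adjusted p = 0.020), Got2 fell with sgKeap1 (-1.13, adjusted p = 0.032) and Gpt with sgNrf2 (-1.63, adjusted p = 0.045). Gpt2 rose with sgKeap1 (1.0, adjusted p = 0.020). Values that did not pass were -1.15 for Got1 with sgNrf2, -0.57 and 0.06 for Got2 with sgCul3 and sgNrf2, -2.13 and -0.66 for Gpt with sgCul3 and sgKeap1, and 0.28 and 0.76 for Gpt2 with sgCul3 and sgNrf2 (adjusted p = 0.074 to 0.87).

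ATF4 and its stress response, the other known input to Slc7a11 and Chac1, gave 0 calls of 14 with sgCul3 and with sgKeap1 and 0 higher and 2 lower with sgNrf2 (medians -0.07, -0.12 and -1.39). Atf3 fell from 1641 ± 670.0 in controls to 298 ± 23.1 scaled counts in sgNrf2 (SD, n = 2 each, log2 fold change -2.39, adjusted p = 0.042). Ddit3, a stress factor, fell from 301 ± 38.5 to 67.9 ± 9.0 (-2.13, adjusted p = 0.044). With sgCul3 and sgKeap1, Atf3 was at -0.52 and -1.12 and Ddit3 at 0.22 and -1.16, and neither passed (adjusted p = 0.27 to 0.91). Atf4 itself was at 0.40, 0.58 and -1.09 and did not pass (adjusted p = 0.47, 0.17 and 0.093).

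For reference, 4 of 5 well-known NRF2 targets rose with each guide, and Hmox1 did not pass with any. Of all genes, 1.35%, 4.45% and 1.90% were called higher with sgCul3, sgKeap1 and sgNrf2. The 5 were chosen with earlier results of these data known, so their count is no independent check. Srxn1, which repairs oxidised peroxiredoxins, changed by 5.78, 6.97 and 6.54 on the log2 scale with sgCul3, sgKeap1 and sgNrf2, and Txnrd1, thioredoxin reductase, by 2.14, 2.19 and 3.0. The change of Slc7a11 was above these values with every guide, and those of Gss were below them. These differences between genes were not tested.

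**Figure D4:**
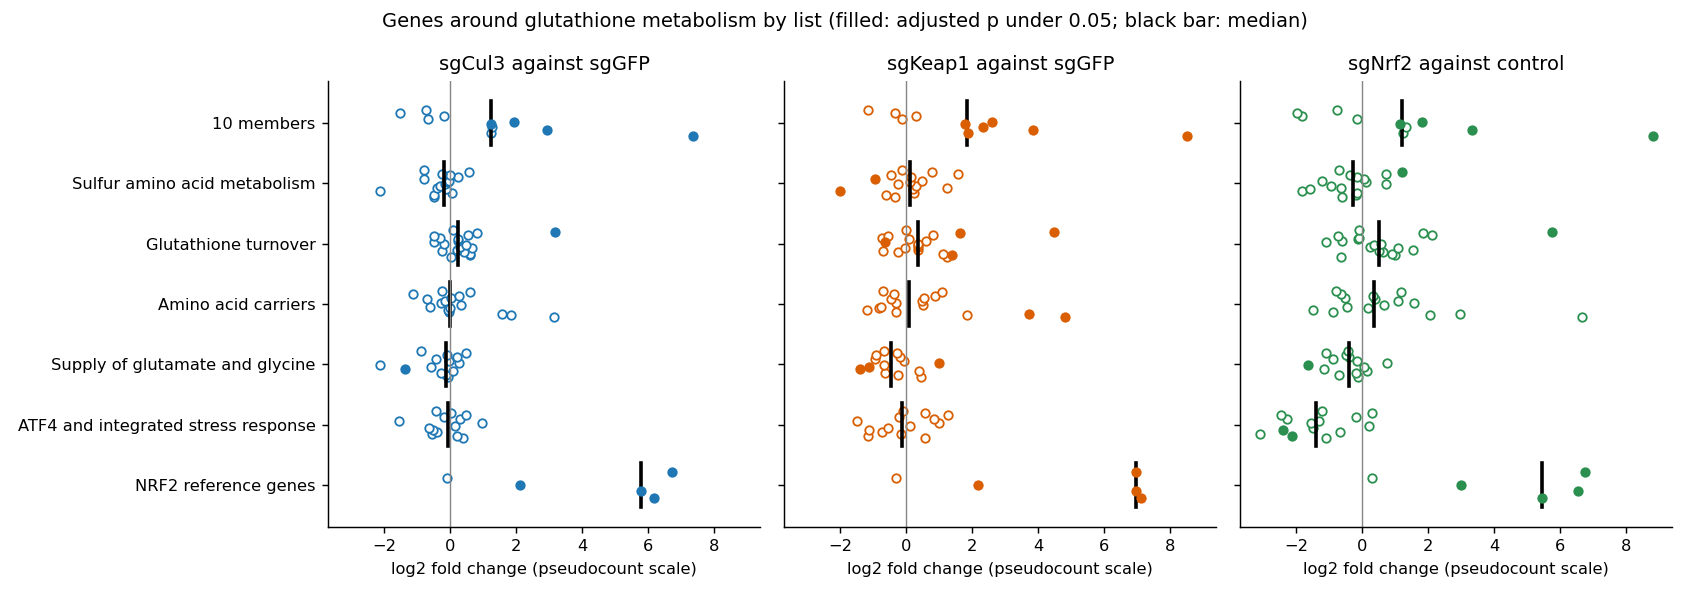
Log2 fold change (horizontal axis) of each tested gene of the 10 members and of 6 further lists, for each guide, with filled points where the limma adjusted p was under 0.05 and a black bar at the list's median. Medians of the 10 members are 1.24, 1.84 and 1.20, and that of the ATF4 list with sgNrf2 is -1.39.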

How the data were processed

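Total RNA of liver tumours was sequenced after extraction with a Qiagen kit and preparation with an Illumina kit, per the labels. The authors deposited 2 gene tables whose unit is a signal: gene counts from HTSeq scaled for depth with DESeq, per the labels and the submitters' processing notes, which also name Picard and mm10. Aligner, annotation release and tool versions: not given in the sources used here. In the Keap1 and Cul3 table the authors' values are raised by 1, and it was removed from the levels printed. Each library's values (100%) then fell on whole reads (tolerance 0.1 reads) of a common step, which gave the read counts. Of the second table, 4 entries of reads assigned to no gene were left out of totals and tests, and they hold 65.3% and 66.8% of the table's sum in the controls and 52.4% and 54.0% in the sgNrf2 tumours, mostly alignments that were not unique. Counting floors are 3 reads and cover counting error only. The 95% intervals come from the limma estimate of the spread between tumours.

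limma 3.58.1 under R 4.3.3 was run, two-sided, on log2(value + 1) of genes whose deposited mean reached 10, with Benjamini-Hochberg adjustment over all genes. The tables were scaled separately and were tested apart, and the 3 groups of the first share 1 estimate of the spread. The script was tested on simulated data. Alternatives were another pseudocount of 5, no filter, a minimum mean of 50, equal totals, edgeR 4.0.16 and DESeq2 1.42.0 on the recovered reads, the groups tested alone, the 1 removed, a replicate block and each library left out. Deviations of same-numbered tumours correlated at 0.221, 0.228 and 0.243 for sgCul3 and sgGFP. The correlations were 0.208, 0.094 and -0.0829 for sgKeap1 and sgGFP and 0.239, 0.518 and 0.098 for sgKeap1 and sgCul3. For sgNrf2 and controls they were -0.000641. Tumours of different numbers correlated at -0.298 to 0.0965 for sgCul3 and sgGFP and at -0.19 to 0.0849 for sgKeap1 and sgGFP. They correlated at -0.436 to 0.264 for sgKeap1 and sgCul3 and at 0.000641 for sgNrf2 and controls. Deviations are from means, so these values are not independent of each other. The labels do not state pairs, and the main tests use none. The replicate block takes tumour numbers over all groups of a table, so it does not test sgCul3 and sgGFP pairs alone.

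Members, lists and motifs were chosen with earlier results of these data known. All 10 members are named, and at most 4 called genes per list and comparison by adjusted p. The other named members of the lists and the group of 6 genes were chosen after values were seen. The genes most like a member have a mean of at least 100 and no predicted-gene symbol. Gene positions and lengths are those of GENCODE M21 on GRCm38.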

Additional observations from a re-analysis of the deposited data

How the results depend on the processing

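Of 576 alternative values of single genes, 533 kept the direction and the side of the threshold, 17 no longer passed, 16 passed newly and 10 changed sign. Slc7a11, Gclc and Gsr kept their calls in every alternative with sgCul3 and sgKeap1. With 1 library left out, the members called higher ranged from 3 to 5 with sgCul3, from 5 to 6 with sgKeap1 and from 2 to 4 with sgNrf2, with 2 left when control B, sgNrf2 A or sgNrf2 B was left out. Those called lower ranged from 0 to 0, 0 to 1 (without sgKeap1 tumour 2) and 0 to 1 (without control A), and between sgKeap1 and sgCul3 they ranged from 0 to 0 in both directions. Other settings that moved a count of members called lower were DESeq2 (1 with sgCul3, 1 with sgKeap1 and 2 with sgNrf2), equal totals (1 with sgKeap1) and the replicate block (1 with sgNrf2, Cth, adjusted p = 0.036). Under the replicate block 4 members were again called higher with sgCul3, with Slc3a2 in place of Gss. The block also moved the count of all called genes with sgKeap1 from 581 higher and 439 lower to 975 and 803. With sgNrf2 it ended the call of Gss (adjusted p = 0.061). With sgNrf2, Gss was also lost in edgeR (0.056), and with sgCul3 at a minimum mean of 50 (0.052). DESeq2 called more genes over the whole table than limma, 479 higher and 447 lower with sgCul3, 1181 and 962 with sgKeap1, 64 and 40 between these guides and 1191 and 1460 with sgNrf2. At a minimum mean of 50 the calls with sgCul3 were 115 higher and 47 lower, and with both groups alone 96 and 72. At equal totals those with sgKeap1 were 366 and 382. With 1 library left out, the genes called higher over the whole table ranged from 44 to 212 with sgCul3, from 201 to 814 with sgKeap1 and from 25 to 1850 with sgNrf2, where the lone library left in a group is assumed to vary like the others. Among the members DESeq2 also passed Slc3a2 and Gclm with sgCul3 (0.011 and 0.0022) and sgNrf2 (0.0071 and 5.1e-04). The signs that changed were of uncalled values near 0. With sgCul3, Chac1 turned to 0.10 under the replicate block and ranged from -0.87 to 0.20 with 1 library left out. With sgKeap1, Ggt1 was 0.00059 under the replicate block and ranged from -0.35 to 0.22, and Chac1 ranged from -0.31 to 0.74. With sgNrf2, Ggt1 was 0.16 at equal totals. Chac1 was not tested at a minimum mean of 50, since its mean is lower. The causes were not tested. Depth limits Slc7a11 in control tumours (6 to 20 reads) and Chac1.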
